A study of Mus musculus with 4 samples.

Results

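RNA levels of 10 genes of the unfolded protein response (Hspa5, Hsp90b1, Dnajb9, Herpud1, Xbp1, Atf4, Ddit3, Trib3, Chac1 and Asns) were measured on Affymetrix arrays in 4 mouse melanocyte lines. The genes were taken by name from the 18193 genes that the arrays could be matched to, and each of their probe sets that is listed with no other gene was read, 22 of 45037 in all. No probe set was shared between one of the 10 genes and another gene. The lines, 9v, 10d, 13d and 14d, had been derived from the skin of WT C57BL/6J pups and of pups that carry bcat*, a stable and active β-catenin expressed in the melanocyte lineage, at 3 days of age. Line 9v is WT and line 10d is bcat* in every source, and both are male by their labels. Lines 13d and 14d are female by their labels, where 13d is bcat* and 14d is WT, but the methods of the study give 13d as WT and 14d as bcat*, and describe the mice as male. Each line is therefore given by its name. The cultures reached 80% confluency in medium with the phorbol ester TPA at 200 nM, on which melanocytes depend for growth. Each line is an immortalized culture represented by 1 array, so that a difference between 2 lines has no replicate check and no effect of genotype can be told apart from a difference between cultures in a single pair.

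The unfolded protein response is started when unfolded proteins build up in the endoplasmic reticulum (ER). IRE1 splices the Xbp1 mRNA, ATF6 is cleaved to a transcription factor, and both raise chaperones and degradation factors of the ER. PERK phosphorylates the initiation factor eIF2α, which lowers translation in general but raises that of Atf4, and the same step is taken by other kinases upon amino acid shortage, haem shortage or viral RNA, so that targets of ATF4 also report on stresses outside the ER. Melanocytes pass large amounts of glycosylated pigment enzymes through the ER.

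The arrays were alike in quality. The RNA integrity number ranged from 9.7 to 9.9, the median intensity was 7 in line 10d and 8 in the other lines, and 35.8% to 36.1% of the probe sets reached the detection level, an intensity of 32. All 10 melanocyte markers listed, among them Tyr, Dct and Sox10, were detected in each line, with a summed intensity from 280142 to 296536. Of other cell types, 1 of 9 fibroblast markers (Col1a2), 1 of 7 keratinocyte markers (Krt10), 1 of 3 Schwann cell markers (Pmp2), 2 of 6 immune markers (Csf1r and Lyz2) and 0 of 4 endothelial markers reached the detection level in any line. Lyz2, lysozyme, reached 9580 in line 14d against 204 to 334 in the other lines, while Ptprc, the pan-leukocyte marker, lay at 4 to 5 in all of them. The sexes in the labels were borne out. Xist, which is expressed from the inactive X chromosome, had an intensity of 4 in lines 9v and 10d, 2124 in line 13d and 1768 in line 14d, and the Y-linked Eif2s3y was at 690 (9v), 1088 (10d) and 13 in both female lines. Ctnnb1, which encodes β-catenin, ranged from 30254 to 34368 over the 4 lines.

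The promoters of the genes were searched for elements through which the branches of the response act, and the 5 promoters in which such an element was found are shown. A window of 250 bases before the start of each of the 10 genes was taken from RefSeq (GRCm38.p6) and searched on both strands. The elements were ERSE, bound by ATF6 with NF-Y (CCAAT, then 9 bases, then CCACG), ERSE-II (ATTGG, then 1 base, then CCACG), the core of the C/EBP-ATF response element CARE, bound by ATF4 (TGATGNAA), and UPRE, bound by spliced XBP1 (TGACGTGG). ERSE was held by 0.113% of all 32851 windows of this length, ERSE-II by 0.0304%, the CARE core by 3.45% and UPRE by 0.563%. In the sequences below, written 5′ to 3′ in the direction of the gene and ending at the base before its start, capitals mark the matches. Hspa5 (chr2:34771840-34772089, plus strand) held 1 ERSE and Hsp90b1 (chr10:86705445-86705694, minus strand) held 2, one in each direction. Herpud1 (chr8:94386179-94386428, plus strand) held a CARE core and an ERSE-II, and Chac1 (chr2:119350992-119351241, plus strand) and Asns (chr6:7693210-7693459, minus strand) held a CARE core each.
Hspa5: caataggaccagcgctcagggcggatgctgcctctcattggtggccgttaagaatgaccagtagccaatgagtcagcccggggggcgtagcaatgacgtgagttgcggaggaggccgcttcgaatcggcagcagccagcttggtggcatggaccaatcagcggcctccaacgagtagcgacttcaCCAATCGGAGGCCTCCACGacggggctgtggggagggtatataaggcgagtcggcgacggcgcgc
Hsp90b1: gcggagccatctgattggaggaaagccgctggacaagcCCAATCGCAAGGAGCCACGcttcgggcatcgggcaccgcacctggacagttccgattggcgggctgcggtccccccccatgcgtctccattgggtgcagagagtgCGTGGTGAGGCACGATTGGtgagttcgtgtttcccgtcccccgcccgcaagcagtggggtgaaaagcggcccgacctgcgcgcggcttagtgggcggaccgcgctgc
Herpud1: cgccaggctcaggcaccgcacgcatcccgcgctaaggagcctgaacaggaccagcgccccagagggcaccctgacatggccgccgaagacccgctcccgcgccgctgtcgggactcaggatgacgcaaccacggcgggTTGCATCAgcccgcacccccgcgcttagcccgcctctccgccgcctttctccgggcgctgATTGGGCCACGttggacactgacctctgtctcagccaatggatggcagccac
Chac1: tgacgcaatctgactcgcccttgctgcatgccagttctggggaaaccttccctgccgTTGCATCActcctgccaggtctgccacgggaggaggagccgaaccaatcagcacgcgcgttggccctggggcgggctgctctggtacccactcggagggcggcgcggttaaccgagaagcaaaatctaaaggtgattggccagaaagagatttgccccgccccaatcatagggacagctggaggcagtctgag
Asns: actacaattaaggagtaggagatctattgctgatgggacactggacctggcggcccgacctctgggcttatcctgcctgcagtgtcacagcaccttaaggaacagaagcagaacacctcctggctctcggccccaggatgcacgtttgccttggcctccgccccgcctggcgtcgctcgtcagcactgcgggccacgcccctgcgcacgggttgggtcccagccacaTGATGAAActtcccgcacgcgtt
The windows of the other 5 genes, Ddit3, Trib3, Atf4, Xbp1 and Dnajb9, held none of these letters. A match describes the sequence only. Inexact matches were not counted and elements outside the window were not searched, so a window without a match does not show that the promoter lacks the element.

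All 10 genes were detected, 8 of them in every line. Line 10d had the highest level of 4 of them (28.8% of all 9415 detected genes had theirs there) and line 13d the lowest level of 5 (21.6% of all detected genes). The highest line lay at least 2-fold above the lowest in 7 of the 10 genes, against 40.1% of all detected genes, and the median distance was 2.95-fold for the 10 genes and 1.79-fold for all. Without line 13d, 5 of the 10 passed this threshold, and without any one of the other lines 6 did. The 10 genes did not share 1 order of lines, as the plot of intensities by line shows. The chaperones Hspa5 and Hsp90b1 were lowest in line 10d. Atf4, Ddit3, Trib3 and Asns were highest in line 10d and lowest in line 13d. Dnajb9, Herpud1 and Xbp1 were lowest in line 9v, where line 10d was within 0.0063 of it for Xbp1 on the log2 scale. Chac1 was highest in line 9v and lowest in line 13d, with 5 there and 12 in line 10d, both under the detection level.

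**Figure D1:**
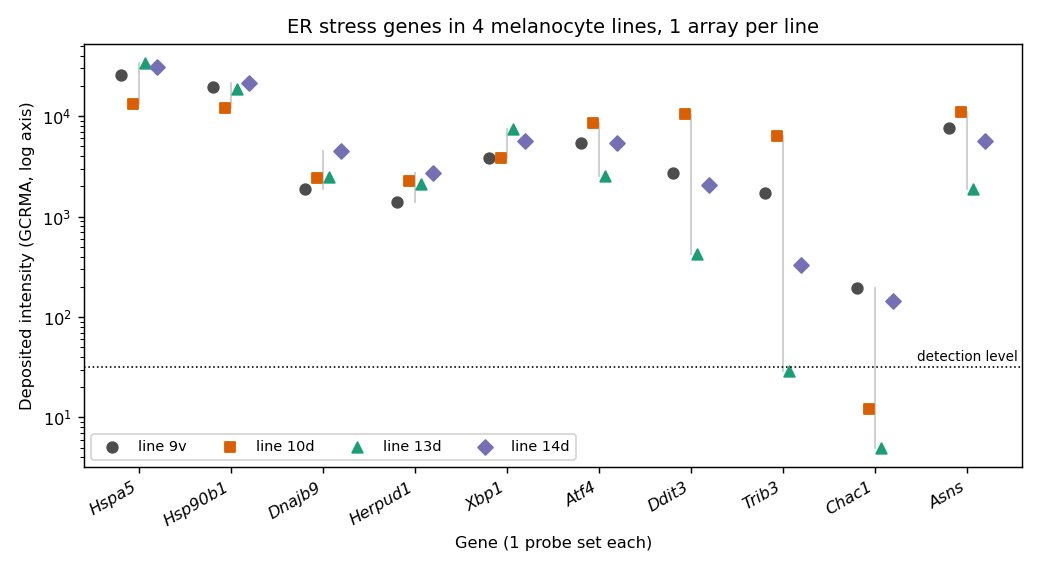
Deposited intensity (log axis) of the 10 genes in lines 9v, 10d, 13d and 14d, with 1 probe set a gene, 1 array a line and therefore no error bars. Grey bars span the 4 lines and the dotted line is the detection level of 32. Trib3 spans from 29 in line 13d to 6406 in line 10d, while Hsp90b1 stays between 12101 and 21616.

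Hspa5, also called BiP, is the luminal Hsp70 chaperone that holds the ER stress sensors inactive. Its brightest probe set had an intensity of 25921 in line 9v, 13154 in line 10d, 33700 in line 13d and 31000 in line 14d. Line 10d was the lowest and the other lines lay close together, within 0.38 on the log2 scale. From line 9v to line 10d the log2 difference was -0.98, just short of 2-fold. A further probe set, with intensities of 22212, 8558, 26058 and 23697 in the order 9v, 10d, 13d, 14d, gave a ratio of line 10d to line 9v of 0.385, and the third and dimmest gave 0.799. All 3 probe sets were lowest in line 10d and highest in line 13d. Hsp90b1, or GRP94, is the Hsp90 of the ER lumen. It had 19666 in line 9v, 12101 in line 10d, 18597 in line 13d and 21616 in line 14d. Here too line 10d was lowest, with a ratio to line 9v of 0.615 and, by the other probe set, of 0.504, and lines 9v, 13d and 14d differed by no more than 0.22 on the log2 scale. These are the members whose windows hold ERSE, and whether it bears on their levels was not tested.

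Dnajb9, or ERdj4, is an Hsp40 co-chaperone of Hspa5 and is known as a target of XBP1. Its single probe set had 1883 in line 9v, 2444 in line 10d, 2463 in line 13d and 4486 in line 14d. Line 14d stood apart, 2.38-fold above line 9v, and without it the remaining lines spanned 0.39 on the log2 scale. Herpud1, a membrane protein of ER-associated degradation, had 1412 in line 9v, 2252 in line 10d, 2091 in line 13d and 2713 in line 14d. Line 9v was lowest by both of its probe sets, with ratios of line 10d to line 9v of 1.59 and 1.83, but line 14d was highest by the one and line 10d by the other.

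Xbp1 encodes the transcription factor made from the mRNA that IRE1 splices. By its brightest probe set it had 3861 in line 9v, 3878 in line 10d, 7382 in line 13d and 5697 in line 14d. Both male lines were low and line 13d was highest, 1.91-fold above line 9v, and a further 2 detected probe sets placed line 13d 1.93-fold and 2.02-fold above line 9v. The difference between lines 10d and 9v was 0.0063 on the log2 scale and its sign varied between probe sets. Spliced and unspliced Xbp1 mRNA were not told apart here.

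The genes downstream of PERK followed, and among them Ddit3 and Trib3 had the widest ranges of the 10 genes. Atf4, whose translation rises when eIF2α is phosphorylated, had 5452 in line 9v, 8633 in line 10d, 2549 in line 13d and 5386 in line 14d. Lines 9v and 14d were nearly equal, line 10d lay 1.58-fold above line 9v and line 13d 2.14-fold below it. Its other detected probe set ranked lines 10d and 13d at the same ends, with 4968 and 1447. The arrays measure Atf4 RNA, not the protein whose synthesis the pathway controls.

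Ddit3, or CHOP, is a C/EBP-family transcription factor that promotes cell death under prolonged ER stress. It had 2713 in line 9v, 10514 in line 10d, 422 in line 13d and 2069 in line 14d, in the same order of lines as Atf4. Line 10d lay 3.88-fold above line 9v and 24.9-fold above line 13d, a distance that was exceeded by 1.17% of all detected genes. Its second probe set was under the detection level in all 4 lines, and with the mean of both the log2 difference of line 10d over line 9v went from 1.95 to 0.51. Trib3, a pseudokinase induced by ATF4 and CHOP, had 1725 in line 9v, 6406 in line 10d, 29 in line 13d and 327 in line 14d. No line was close to another, and line 13d was under the detection level. Line 10d lay 3.71-fold above line 9v and at least 200.2-fold above line 13d. A wider range between lines was found for 8 of the 9415 detected genes. The other probe set of Trib3 gave 1144, 3795, 28 and 293 in the order 9v, 10d, 13d, 14d. Asns, asparagine synthetase, a classical target of ATF4 upon amino acid shortage, had 7690 in line 9v, 11076 in line 10d, 1869 in line 13d and 5704 in line 14d. Line 13d lay 4.11-fold below line 9v and line 10d 1.44-fold above it, and by the other probe set the ratios to line 9v were 0.271 for line 13d and 1.49 for line 10d.

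Chac1, an enzyme that degrades glutathione and is induced by ATF4, did not follow the other targets. Its single probe set had an intensity of 194 in line 9v, 12 in line 10d, 5 in line 13d and 143 in line 14d. It was thus detected in lines 9v and 14d and under the detection level in lines 10d and 13d. In line 10d, where Atf4, Ddit3, Trib3 and Asns were highest, the level of Chac1 was at least 6.06-fold below that of line 9v. Its relative Chac2, also a glutathione-degrading enzyme, had 754 in line 9v, 148 in line 10d, 201 in line 13d and 545 in line 14d, so that it too was higher in lines 9v and 14d than in lines 10d and 13d. The plot of all detected probe sets shows that Chac1 alone of these 10 genes lies more than 2-fold below line 9v in line 10d by its brightest probe set.

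**Figure D2:**
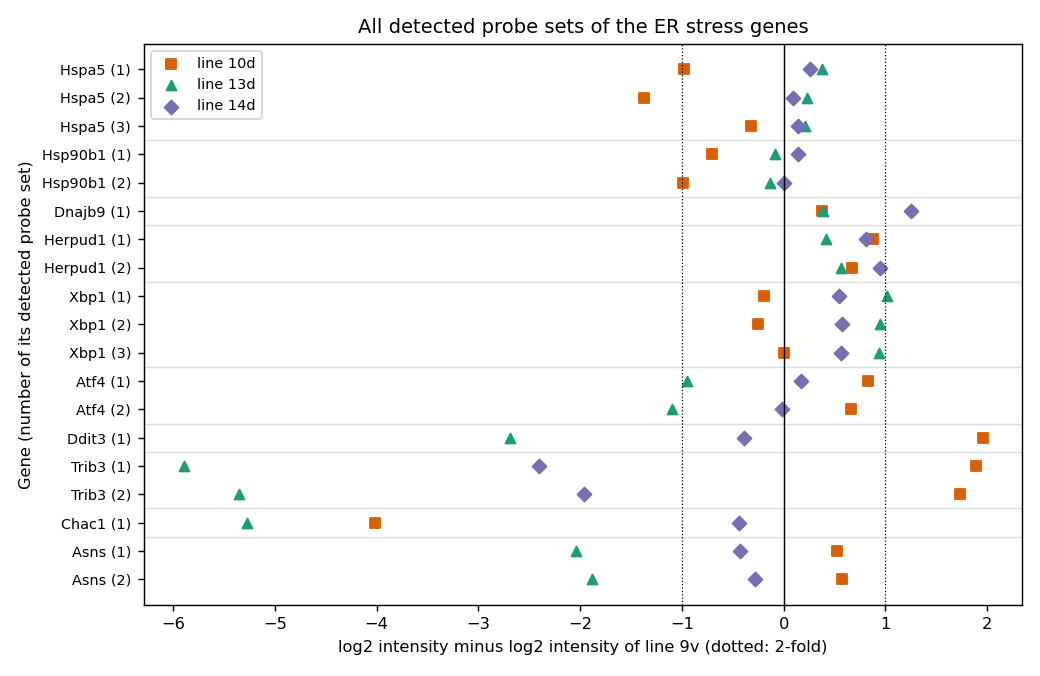
Difference in log2 intensity from line 9v (x axis, 0 is line 9v and the dotted lines mark 2-fold) for lines 10d, 13d and 14d in each of the 19 detected probe sets of the 10 genes, numbered within a gene. Line 10d lies to the left of line 9v in all 3 probe sets of Hspa5, at -0.98, -1.38 and -0.32, and values of Chac1 in lines 10d and 13d and of Trib3 in line 13d come from intensities of 29 or lower.

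Line 10d was then compared with line 9v, the pair of equal sex whose genotype all sources give alike. At least 2-fold higher in line 10d were 2 of the 10 genes, Ddit3 and Trib3, while 7.85% of the 9131 genes detected in either line were. Chac1 was the 1 gene at least 2-fold lower, against 10.0% of all genes. Of all genes that differed by 2-fold between lines 10d and 9v, 43.9% were thus higher in line 10d. The share was 44.2% with cyclic loess and 44.1% with quantile scaling. It was 59.5% (1039 higher and 708 lower) when each array was centred on its median. These medians, 7 in line 10d and 8 in line 9v, lie under the detection level. Centring on them moved the median of all genes to 0.19 and left the counts of the 10 genes at 2 and 1. Log2 differences of the 10 genes ran from 1.95 for Ddit3 to at most -2.60 for Chac1, whose value is a bound, beside a median of 0.0035 over all genes. In the female pair, line 13d was at least 2-fold lower than line 14d in 5 of the 10 genes, namely Atf4, Ddit3, Trib3, Asns and Chac1, against 8.73% of the 9213 genes detected in either line. It was at least 2-fold higher in 0 of the 10, against 11.0% of all genes. The sizes there were 2.11-fold for Atf4, 4.90-fold for Ddit3, at least 10.2-fold for Trib3, 3.05-fold for Asns and at least 4.47-fold for Chac1. The labels and the methods assign genotypes to this pair in opposite ways. Plotted against each other, the male and the female pair place Ddit3 and Trib3 far apart from Hspa5, Hsp90b1 and Xbp1.

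**Figure D3:**
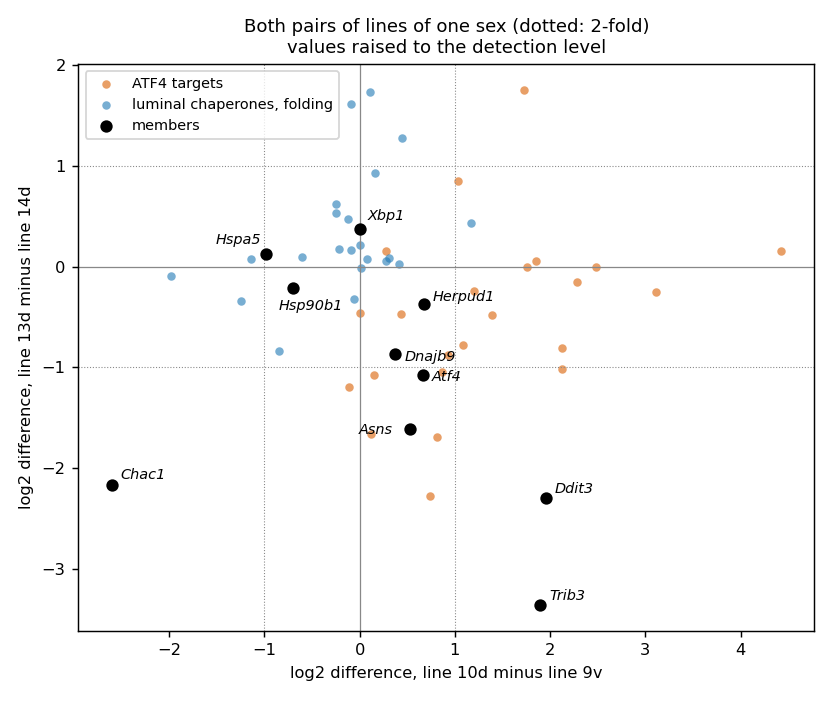
Log2 difference of line 10d from line 9v (x axis, male lines) against that of line 13d from line 14d (y axis, female lines), for the 10 genes (black) and the detected genes of 2 lists, with values raised to the detection level and dotted lines at 2-fold. Ddit3 and Trib3 lie at 1.95 and 1.89 on the x axis and at -2.29 and -3.35 on the y axis, and Chac1 lies below 0 on both.

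Other targets of ATF4 were read from a list of 30 genes, of which 28 were measured and 23 detected. The list was chosen with earlier results of these data known. Of the 23 detected genes, line 10d exceeded line 9v by 2-fold or more in 13, against 7.85% of all genes. It fell short of line 9v by as much in 0, against 10.0%, and the median log2 difference was 1.09. Line 10d was the highest of the 4 lines for 21 of the 23, and line 13d the lowest for 15, against 28.8% and 21.6% of all detected genes. Both held for 14 of them, and for 6.84% of all detected genes. The widest distances were those of Nupr1, a stress-induced chromatin protein, with 952 in line 9v, 4629 in line 10d, 45 in line 13d and 50 in line 14d, and of Vldlr, a lipoprotein receptor, with 45, 965, 158 and 142 in the same order. Aldh18a1, the first enzyme of proline synthesis, followed with 992 in line 9v, 1654 in line 10d, 97 in line 13d and 469 in line 14d. Chosen after their values were seen, Atf3 went from 58 (9v) to 502 (10d) and Cebpb from 506 to 2212, both transcription factors of the same response. The serine pathway enzyme Psph was at 1751 (9v) and 7656 (10d). An exception, also singled out after its values were seen, was Ddit4, an inhibitor of mTORC1, with 803 in line 14d and 330 to 356 in the other lines. Without line 10d, the number of these genes with a range of at least 2-fold went from 22 to 13.

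The aminoacyl-tRNA synthetases and the tRNA exporter Xpot, which ATF4 also induces, behaved alike. This list too was chosen with earlier results of these data known. All 13 listed genes were measured and detected, and line 10d was highest in each of them, against 28.8% of all detected genes. Line 13d was lowest in 8 and line 14d in 4, against 21.6% and 27.4% of all detected genes. Line 10d exceeded line 9v by 2-fold or more in 5 of the 13, against 7.85% of all genes. It was that far below line 9v in 0, against 10.0%, and the median log2 difference was 0.94. Yars, the tyrosine enzyme, had 779 in line 9v, 2272 in line 10d, 448 in line 13d and 360 in line 14d. Cars, the cysteine enzyme, had 745, 1303, 277 and 733, and Aars, the alanine enzyme, 5825, 9028, 2196 and 1983 in the same order of lines. This count depends on the threshold, and at 1.5-fold 11 of the 13 were higher.

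The luminal chaperones and folding enzymes did not share this pattern. Of 22 detected genes, line 10d was highest for 2 and lowest for 6, against 28.8% and 26.1% of all detected genes. Line 14d was lowest for 9, against 27.4% of all detected genes. Line 13d was highest for 14, against 21.4% of all detected genes. Line 10d was at least 2-fold above line 9v in 1 of 21 and below it in 3, against 7.85% and 10.0% of all genes. The median log2 difference was -0.089, and 0.10 with arrays centred on their medians, where the median of all genes was 0.19. The lower genes were Pdia4 and Pdia6, protein disulfide isomerases, and Creld2, a secreted ER stress protein. Pdia4 had 553 in line 9v, 140 in line 10d, 423 in line 13d and 452 in line 14d, and Pdia6 had 5444, 2297, 6162 and 7802. Both were lowest in line 10d, as Hspa5 and Hsp90b1 were. Creld2, named after its values were seen, had 1756 in line 9v, 795 in line 10d, 2403 in line 13d and 2280 in line 14d. The higher gene was Ero1a, an oxidase of the disulfide isomerases, at 2247 (9v) and 5052 (10d). Sil1, the nucleotide exchange factor of Hspa5, stood apart in line 14d, with 268 against 888 to 1133 in the other lines. Chosen likewise, the lectin chaperones Calr and Canx spanned 21071 to 31093 and 13106 to 16404 over the 4 lines.

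Genes of translocation into the ER and of vesicle traffic out of it were lowest in line 10d in 14 of 22 detected genes, against 26.1% of all detected genes. The list had a median log2 difference of -0.26 from line 9v to line 10d. With arrays centred on their medians it was -0.069, where the median of all genes was 0.19. Line 10d was lower by 2-fold or more in 2 genes and higher in 0, against 10.0% and 7.85% of all genes. The lower genes were Sec24d, a cargo-binding subunit of the COPII coat, and Spcs3, a subunit of signal peptidase. Sec24d had 482 in line 9v, 38 in line 10d, 303 in line 13d and 211 in line 14d. Spcs3 had 2378, 849, 3411 and 4522 in the same order. Ssr2, a subunit of the translocon-associated complex, ranged from 1814 in line 10d to 3379 in line 14d. In ER-associated degradation, 18 genes were detected. Of these, 1 was lower in line 10d by 2-fold or more and 0 higher, against 10.0% and 7.85% of all genes. The lower gene was Edem1, a mannosidase-like factor for misfolded glycoproteins that was outside the naming rule. It had 2925 in line 9v, 1264 in line 10d, 3122 in line 13d and 2354 in line 14d. Line 10d was the highest for 8 of the 18 and the lowest for 3, against 28.8% and 26.1% of all detected genes, and the median log2 difference was 0.20. Edem2 and the lectin Erlec1 were highest in line 14d, with 925 and 2449, where the ubiquitin-conjugating enzyme Ube2j1 was lowest, with 380.

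Of 13 detected genes of the sensors and their control, line 10d exceeded line 9v by 2-fold or more in 3, against 7.85% of all genes. It was that far below line 9v in 0, against 10.0% (median log2 difference 0.32). Ern1, which encodes IRE1, had 332 in line 9v, 1449 in line 10d, 279 in line 13d and 504 in line 14d. Atf6 had 477, 1854, 1117 and 644 in the same order. Ppp1r15a, or GADD34, is the feedback subunit of the phosphatase that acts on eIF2α and is itself a target of ATF4. It had 480 in line 9v, 1993 in line 10d, 193 in line 13d and 280 in line 14d. It thus had its highest level in line 10d and its lowest in line 13d, as Atf4 and Ddit3 did. Eif2ak3, which encodes PERK, was at 769 (9v), 554 (10d), 1017 (13d) and 863 (14d), named after its values were seen. The plot of pathway genes by line sets the lists side by side.

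**Figure D4:**
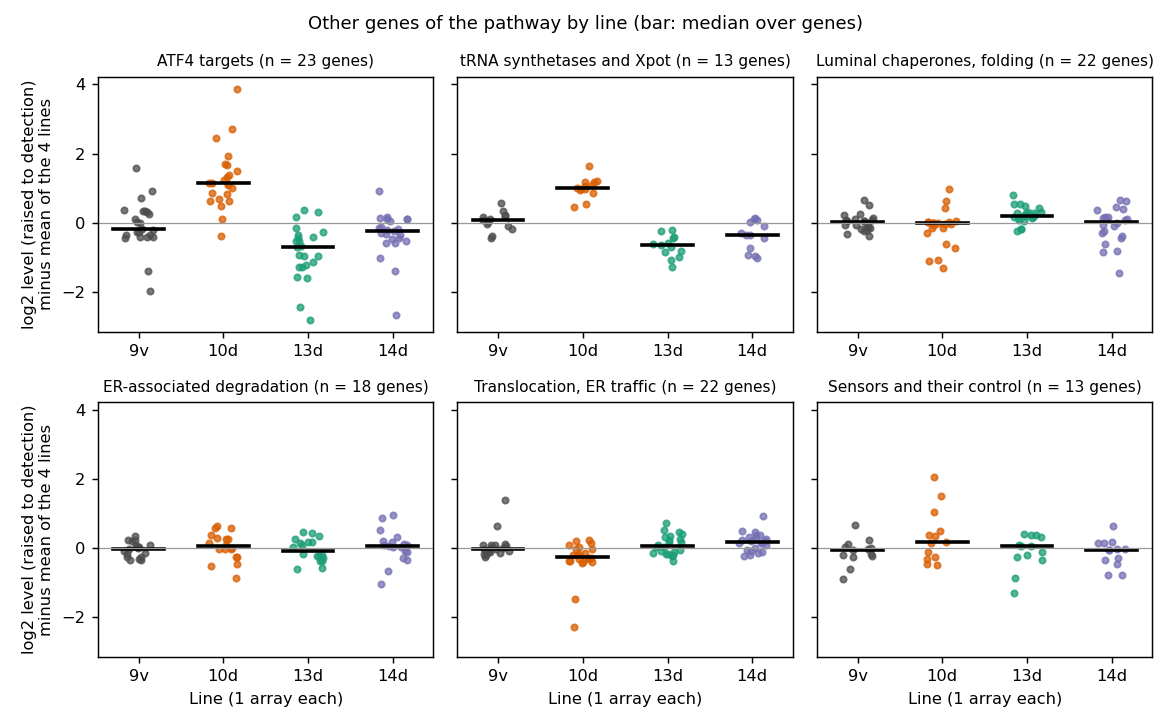
Log2 level of each detected gene minus its mean over the 4 lines (y axis), for 6 gene lists by line (x axis, 1 array each), with values raised to the detection level. Dots are genes, spread sideways at random, and bars are medians over genes. The median of the ATF4 targets was 1.14 in line 10d and -0.71 in line 13d, and that of the luminal chaperones -0.020 and 0.19.

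Both readings of the genotypes were fitted over all 4 lines with limma, 2 lines against 2. By the labels (10d and 13d against 9v and 14d), 0 of the 10 genes and 0 of 9415 genes (0%) passed an adjusted p of 0.05, and 739 genes had an unadjusted p under 0.05. By the methods of the study (10d and 14d against 9v and 13d), 0 of the 10 genes and again 0% of all genes passed, with 352 genes at an unadjusted p under 0.05. An exact permutation test of 2 lines against 2 cannot go below 0.333. Chac1 was the member closest to the threshold. By the labels its difference of bcat* from WT lines was -4.43 ± 0.65 (log2, SE, n = 2 lines each), with an adjusted p of 0.418 in limma, and as both bcat* lines were under the detection level its size is uncertain. By the methods of the study the difference was 0.41 ± 2.28 and the adjusted p 0.995. Under the labels the 2 groups did not overlap for 2 of the 10 genes, Chac1 and Hsp90b1, against 39.2% of all detected genes, and under the methods for 1, Herpud1, against 31.0%. For Ddit3 the difference was -0.17 ± 1.61 by the labels and 2.12 ± 1.26 by the methods, with adjusted p values in limma of 0.981 and 0.970. The value for Trib3 was -0.80 ± 2.81 by the labels and 2.69 ± 2.56 by the methods, with adjusted p values in limma of 0.946 and 0.970. For both genes, lines given the same genotype lay further apart than the groups did, under the labels and under the methods alike. A p that misses the threshold with this number of lines does not show that the genotypes are alike.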

How the data were processed

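The authors deposited 1 intensity per probe set for each of 4 arrays, 1 array per line. GCRMA is the only tool listed in the processing notes of the submitters. For its version and any further step, nothing is given in the sources used here. Deposited intensities held no decimals, had a minimum of 2 and had nearly the same quartiles on every array, and were read here as a linear scale, normalized between arrays and not centred per gene. GCRMA draws signals near background together, which can shrink or blur differences of dim genes, and rounding makes their ratios coarse. Log2 was taken without a pseudocount. Gene names of probe sets came from GEO's platform annotation (34945 with 1 gene, 932 with several, 9160 not listed), and for each gene the probe set of highest average log2 level was used. A log2 value of 5, an intensity of 32, was the detection level. Counts of genes that differ, ranges and bounds written as at least used values raised to it, and genes were taken as differing from 2-fold on. Which line was highest or lowest, whether groups overlapped, and the limma fits rested on values that were not raised. Levels were compared between lines, never between genes.

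Members and gene lists were chosen with earlier results of these data known. The genes named are the 10 members, up to 3 detected genes of each of 8 lists with the widest range over the lines, the 5 genes nearest to a pair of mean profiles, and others where the text says so. List symbols that were out of date were matched through synonyms in a RefSeq gene table (GRCm38.p6). Limma, with a trend in the prior variance, was fitted to log2 values of the 9415 detected genes with Benjamini-Hochberg adjustment, separately for both readings of the genotypes. A run on simulated data checked the code only. Its noise was set smaller than the spread between these lines, so it does not show what the fit can find here. Replicate cultures of a line were not analysed here, so p-values measure the spread between lines. As alternatives, a gene's probe sets were averaged, or those whose names carry the suffix a, s or x were dropped. The arrays were scaled by cyclic loess, by quantiles or to equal medians. Results were also recomputed with other detection levels and fold thresholds, no filter, no trend, sex as a block and each line left out. Python 3.11.15, NumPy 2.4.6, pandas 2.3.3, Matplotlib 3.10.9, R 4.3.3 and limma 3.58.1 were used.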

Additional observations from a re-analysis of the deposited data

How the results depend on the processing

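Of 132 member values recomputed with other settings, 125 moved by less than 1.5-fold and 7 by more. The sign changed in 2, both of Xbp1 in line 10d over line 9v, which went from 0.0063 to -0.16 with probe sets averaged and to -0.0058 with cyclic loess. The 7 were the values of Ddit3 with its probe sets averaged and the bounds of Chac1 and Trib3 at other detection levels. The number of the 10 genes at least 2-fold higher in line 10d than in line 9v was 1 with probe sets averaged (Trib3) and 1 without suffixed probe sets (Ddit3). At the latter setting Hspa5, Hsp90b1 and Trib3 have no probe set left, and Xbp1 has none that was detected. These genes were therefore not checked by it and gave no value there. A threshold of 1.5-fold gave 4 higher and 3 lower of the 10, 1672 genes higher and 1751 lower among all genes, 11 tRNA synthetase genes higher and 6580 genes with such a range over the lines. At 3-fold, 267 genes were higher, 406 lower and 0 tRNA synthetase genes higher, and 1757 genes had that range. In the fit by the labels, 8 genes were called with probe sets averaged, 4 with median centring and 232 with no filter on dim genes, and in the fit by the methods of the study 49 with no filter. None of these calls was one of the 10 genes. Leaving out each line in turn, an alternative chosen after seeing the values for the ranges, left 5 to 6 of the 10 genes (fewest without line 13d), 13 to 21 ATF4 targets (fewest without line 10d) and 2484 to 3168 genes (fewest without line 14d) with a 2-fold range. Of 40 ranges of single members with a line left out, 10 moved by over 1.5-fold. Without line 10d, the log2 range went from 1.36 to 0.38 for Hspa5, from 0.84 to 0.22 for Hsp90b1, from 1.76 to 1.10 for Atf4, from 4.64 to 2.68 for Ddit3 and from 7.65 to 5.75 for Trib3. Without line 13d it was 0.68 for Atf4, 2.35 for Ddit3, 4.29 for Trib3 and, from 2.57, 0.96 for Asns, and without line 14d it went from 1.25 to 0.39 for Dnajb9. Leaving out a line gave 0 genes called in either fit, with limma values by the labels from -2.49 to 2.15 for Ddit3, from -4.69 to 3.09 for Trib3 and from -5.06 to -3.79 for Chac1. By the methods they ran from 0.78 to 3.47 for Ddit3, from -0.25 to 5.64 for Trib3 and from -2.23 to 3.05 for Chac1. The sign thus rested on single lines for Ddit3 and Trib3 by the labels and for Trib3 and Chac1 by the methods. By the labels, both turned without line 9v or 13d, and by the methods Trib3 turned without line 13d and Chac1 without line 13d or 14d. With sex as a block, which pairs line 9v with 10d and line 13d with 14d, 0 of 9415 genes were called by either reading. At an unadjusted p under 0.05 in limma lay 708 genes by the labels and 246 by the methods. Among them were 1 and 4 of the 10 genes. The block leaves fewer residual degrees of freedom than the 2 of the fits without it, so these unadjusted counts are weak. The labels give no replicate numbers that could serve as a block. Signals near background limit what Chac1 and Trib3 can show in dim lines.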

Other observations

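Stress genes outside the ER differed between the lines in other ways. Of 12 detected genes of cytosolic heat shock proteins, line 10d exceeded line 9v by 2-fold or more in 0, against 7.85% of all genes. It fell short of line 9v by as much in 1, against 10.0% (median log2 difference -0.25). The lower gene was Hspa1a, an inducible Hsp70, with an intensity of 148 in line 9v, 34 in line 10d, 86 in line 13d and 624 in line 14d. Its near-identical copy Hspa1b, which may share signal with it, had 1199, 641, 1252 and 1741, with the same lines at both ends. Hspb8, a small heat shock protein, had 827 in line 9v, 702 in line 10d, 287 in line 13d and 6, under the detection level, in line 14d.

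Relatives of the 10 genes did not all share their patterns. Hspa9, the mitochondrial Hsp70, had 4241 in line 9v, 13654 in line 10d, 3766 in line 13d and 3510 in line 14d, so that it was highest in the line where Hspa5 was lowest. Trib2, a pseudokinase related to Trib3, had 644, 459, 3008 and 1120, with line 13d highest and line 10d lowest, the reverse of Trib3 at both ends.

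The detected genes whose levels over the 4 lines lay nearest to the mean profile of Ddit3, Trib3, Chac1 and Asns were Aldh18a1 and Slc1a4, a neutral amino acid transporter, with root mean square differences of 0.36 and 0.37 on the log2 scale, then Fbxl2, 2900093K20Rik and Dnaic2 with 0.42 to 0.60. Slc1a4 had an intensity of 672 in line 9v, 1387 in line 10d, 72 in line 13d and 452 in line 14d. For the mean profile of Hspa5, Hsp90b1, Dnajb9 and Herpud1 they were Atl3, 1700030K09Rik, Ap1g2, Camk1 and Spcs2, with differences of 0.015 to 0.054. With 4 lines, many genes can come this close, and likeness says nothing of shared control. Values under the detection level, such as those of Chac1 in lines 10d and 13d, entered the first profile as they were. Fbxl2, Dnaic2 and 2900093K20Rik likewise had only 6, 12 and 16 in line 13d. The first profile averages Chac1, which was highest in line 9v, with genes highest in line 10d (Ddit3, Trib3 and Asns). The second profile averages genes lowest in line 10d (Hspa5 and Hsp90b1) with genes lowest in line 9v (Dnajb9 and Herpud1).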
